A study of Mus musculus with 18 samples.

Results

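Organoids grown from adult mouse intestinal crypts were set against mouse embryonic fibroblasts (MEFs), so that native adult epithelium is compared with mesenchyme across the whole transcriptome. The samples were chosen by their titles: 3 arrays of crypt-derived budding organoids and 3 arrays of MEFs, 6 of the 18 arrays in the series. All came from the C57BL/6 strain, and the labels name no transgene, treatment, animal age or passage for either group. The crypt-derived budding organoids are cultured cells whose source is given as adult intestinal crypts, and the MEFs are embryonic cells that stand in the series as the starting population for reprogramming. The MEF titles carry the mark re-analysis, which they do not explain, and the crypt titles do not carry it. Organoids from induced intestinal stem cells (iISC) and from fetal intestinal (FI) progenitor cells, 3 arrays each, are used below only to show where the crypt organoids differ from them; the FI arrays hold spherical and budding organoids together. The labels do not say whether arrays of a group came from separate animals or cultures, so the p-values measure only the spread between these samples.

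The small intestine is lined by a single-layered epithelium that is renewed from stem cells at the base of the crypts. These stem cells depend on Wnt signals and give rise to absorptive enterocytes and to secretory Paneth, goblet, enteroendocrine and tuft cells, and a crypt organoid in culture holds all of these lineages without the surrounding stroma. Fibroblasts make the collagen-rich matrix beneath such an epithelium and, in the intact gut, are a source of Wnt agonists and of antagonists of bone morphogenetic proteins (BMP).

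RNA was labelled with Cy3 and hybridised to 1-colour Agilent whole-genome mouse arrays with 41174 gene probes. A level is given below as the log2 signal of a probe minus the 75th percentile of its own array, so that a level of 0 lies at that percentile. Between 60.2% and 68.7% of gene probes were well above background on the 6 arrays. MEF arrays 2 and 3, on the same slide, differed over 27198 probes with a robust SD of 0.073 (log2), below the 0.0909 expected from repeated spots within an array, and a median chi-square of 1.08 over 192 repeated probes, against 14.3 to 153 for the other pairs within a group. The plain SD of their difference was larger, at 0.212. They were counted as 1 sample; the comparison rests on 3 crypt samples and 2 MEF samples. Crypt sample 1 lay on another slide than samples 2 and 3. The MEF arrays were scanned on another scanner model and read with another version of the extraction software than the crypt arrays, so that scanner, software and slide cannot be told apart from the group. The 7 spike-in control RNAs bright enough to measure were all lower in crypt organoids after scaling, by a median of -0.76 (log2, range -1.03 to -0.46). Changes close to this size therefore depend on the scaling chosen.

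Crypt organoids and MEFs differed across the transcriptome. Of 15036 genes tested, 7575 (50.4%) were called different by limma, with a Benjamini-Hochberg adjusted p below 0.05 and a change of 1 or more on the log2 scale; of these, 3636 (24.2% of all tested) were higher in crypt organoids and 3939 (26.2%) were lower. Testing required a signal well above background on all arrays of at least 1 group. Of the genes tested, 1745 were not above background on any array of the other group and so had to differ, and 1737 of these were called; among the 12106 genes above background on every array, 5002 (41.3%) were called. The 3 crypt samples and 2 MEF samples did not overlap for 12178 genes (81.0%). With genes dim in all of 1 group taken at the bound described below, a log2 change of at least 5 was found for 684 higher and 963 lower genes, and of at least 10 for 111 higher and 101 lower genes. The median change over all genes tested was 0.02. When arrays were centred on their median in place of the 75th percentile, that median moved to 0.56 and the split to 5539 higher and 3081 lower; scaling on the spike-ins moved it to 0.77, with 6435 higher and 2887 lower. In both, the higher genes made up more of the calls (64.3% and 69.0%, against 48.0%), so the balance between the directions is not settled, while 6202 genes were called in the same direction under these scalings and under quantile scaling. In bulk RNA, fewer cells of a type and less RNA per cell cannot be told apart.

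The genes highest in crypt organoids relative to MEFs were led by products of enterocytes and Paneth cells. Where a gene was not well above background on any array of the dimmer group, its fold is given as a lower bound against the lowest signal that was well above background. Fabp1, a fatty acid binding protein of absorptive cells, had levels of 8.03, 8.34 and 8.27 in crypt samples 1 to 3, against -7.88 and -8.91 in MEFs, and was at least 22682-fold higher (adjusted p = 4.7e-06). Defa23, a Paneth cell alpha-defensin, was at least 16981-fold higher (7.79, 7.79 and 7.81 in crypt organoids, against -7.93 and -8.97 in MEFs). Sis, the sucrase-isomaltase of the brush border, was at least 15537-fold higher (7.22, 7.95 and 7.83 against -7.84 and -7.30). These 3 genes sat near the top of the measurable range in every crypt sample and at its floor in both MEF samples. The 10 largest rises were ranked by the bound where there was one and by the fitted change otherwise, and 6 of them had at least 1 MEF array above background, with fitted changes of 15.01 for Lgals2 (a galectin), 14.16 for Gsta2, 13.39 for Gsta1, 14.10 for Defa20, 13.82 for Cyp2c65 and 13.44 for Prap1. Gsta1 and Gsta2 are glutathione transferases, Cyp2c65 is a cytochrome P450, and Prap1 is a secreted protein.

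The 10 largest falls were led by matrix and cytoskeletal genes. Spp1, which encodes osteopontin, was at least 27679-fold lower in crypt organoids, at -8.94, -8.54 and -8.80, against 8.27 and 7.94 in MEFs (adjusted p = 3.8e-06). Col1a1, the alpha-1 chain of type I collagen, was at least 15369-fold lower (-8.62, -8.46 and -8.32 in crypt organoids, against 7.09 and 7.43 in MEFs). Mgp, matrix Gla protein, was at least 11836-fold lower, Col3a1 at least 9691-fold, Ccdc80 at least 8214-fold and the surface antigen gene Thy1 at least 7767-fold. Serpinh1, the collagen chaperone, changed by -13.88 (log2), the thrombin receptor F2r by -13.34, the tropomyosin Tpm2 by -13.26 and the caveolar gene Cav1 by -13.25. Each of these was above background on 1 crypt array. Their sizes are fitted changes that include crypt arrays not above background, so they are not bounds like the folds before them. None of the 10 was above background in all 3 crypt samples.

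**Figure D1:**
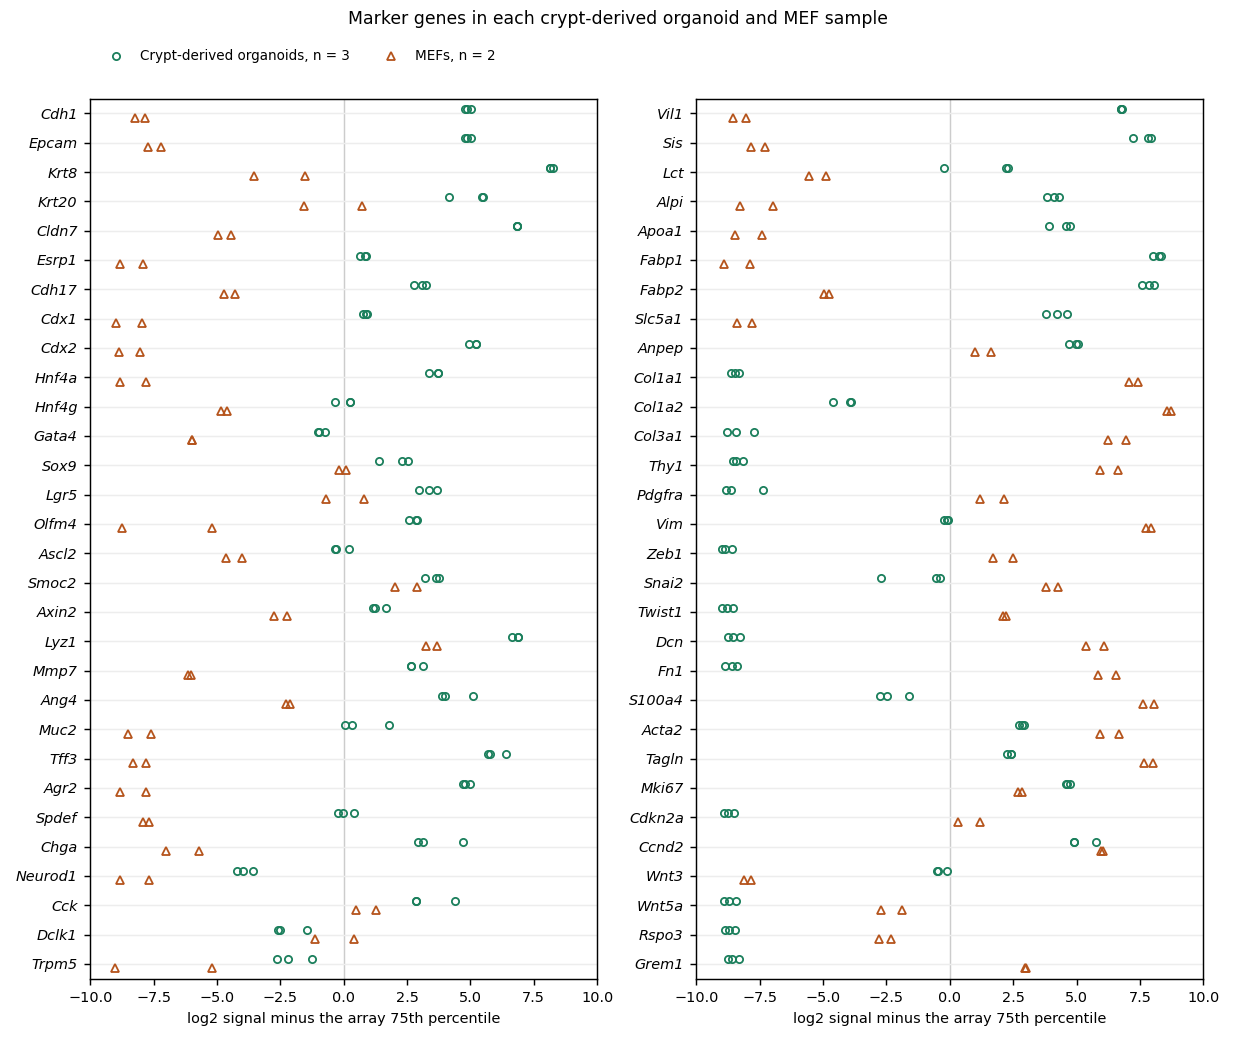
Level of each tested marker gene (log2 signal minus the 75th percentile of the array) in the 3 crypt-derived organoid samples (circles) and the 2 MEF samples (triangles). Epithelial and intestinal genes other than Dclk1 lie to the right in crypt organoids and collagen and mesenchymal genes in MEFs, with Ccnd2 the only marker not called.

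The gene lists described from here on held 860 tested genes. Of these, 255 were above background in 1 group only and had to differ, and all 255 were called; of the other 605, 456 were called. List medians take the 255 at their bound. Defining markers of both groups were read next, and they were chosen with earlier results of these data known. Of 62 marker genes, 60 were tested, 40 were higher and 19 were lower in crypt organoids, against 24.2% and 26.2% of all genes. Those not above background on any array of 1 group, such as Cdh1 and Col1a1, had to differ. Of the 59 called, 53 were called alike under every other setting of samples, scaling, filter and threshold in which they were tested. Defa24 had no probe that could be named, and the tuft cell regulator Pou2f3 was not well above background on any of the 6 arrays. The epithelial adhesion genes Cdh1 (E-cadherin) and Epcam were at least 2281-fold and at least 2274-fold higher in crypt organoids, and neither was above background on any MEF array. Cdh1 had levels of 5.04, 4.86 and 4.80 in crypt organoids, against -7.85 and -8.23 in MEFs. Among genes of epithelial adhesion and junctions, 29 of 32 tested were higher and none was lower, with a median change of 6.99. With genes dim in all of 1 group left out, 19 of 22 were higher. The tight junction genes Cldn7 and Tjp3 changed by 11.54 and 11.01. All 6 tested epithelial keratins were higher (median 6.54). Krt8, a keratin of simple epithelia, had levels of 8.28, 8.14 and 8.16 in crypt organoids, against -3.54 and -1.53 in MEFs. Krt23 was at least 1399-fold higher, while Krt18 (6.62) and Krt7 (6.46) were above background in MEFs as well. Of 12 epithelial transcription factors and splicing regulators, 11 were higher (median 6.59), among them the grainyhead factor Grhl2 (at least 197-fold), the ETS factors Elf3 (at least 416-fold) and Ehf (at least 196-fold) and the splicing regulator Esrp1 (at least 131-fold). In 6 of the 12, no MEF array was above background, so that these had to be higher. Among the other 6, 5 were higher.

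Most regulators of intestinal identity were higher in crypt organoids, and 12 of the 27 on the array were also above background on every MEF array. Of 26 intestinal and endodermal transcription factors tested, 24 were higher and none was lower (median 6.02), and 23 of the 24 were called alike under the other 3 scalings. Among the 17 not dim in all of 1 group, 15 were higher. Cdx2, the homeobox factor that specifies the intestine, had levels of 4.95, 5.20 and 5.22 in crypt organoids, against -8.05 and -8.87 in MEFs, and was at least 2663-fold higher. Its paralogue Cdx1 was at least 139-fold higher. The hepatocyte nuclear factors, which are shared by liver and gut, included Hnf4a (at least 931-fold) and Hnf4g, which was above background in MEFs and changed by 4.79 ± 0.24 (SE). Creb3l3, a factor bound to the endoplasmic reticulum, changed by 10.25 and Gata4 by 5.09. Sox9, made in crypt base and Paneth cells and also in mesenchymal lineages, changed by 2.11 ± 0.38 (2.53, 1.39 and 2.31 in crypt organoids, against 0.10 and -0.17 in MEFs).

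Genes of crypt base stem cells and Wnt targets were above background in every crypt sample, for all 27 tested, and most were higher than in MEFs. In this list 19 were higher and 2 were lower, with a median change of 2.11. Olfm4, an abundant secreted marker of mouse and human crypt base cells, had levels of 2.58, 2.86 and 2.88 in crypt organoids, against -5.22 and -8.76 in MEFs (9.76 ± 1.02, above background on 1 MEF array). Lgr5, the R-spondin receptor that marks crypt stem cells, had levels of 3.68, 2.96 and 3.35 in crypt organoids, against 0.81 and -0.71 in MEFs. Its change was 3.28 ± 0.50 (adjusted p = 0.0028), and it was above background on every MEF array. The call for Lgr5 was lost when all 17 samples of the series shared 1 estimate of the spread (adjusted p = 0.131) and with slide as a random block (adjusted p = 0.0824). The stem cell factor Ascl2 changed by 4.19, Axin2, a feedback inhibitor induced by Wnt, by 3.84, the ubiquitin ligase gene Rnf43 by 6.36 and the Wnt target Sp5 by 8.87. Aqp4, a water channel, changed by 8.09. Smoc2, whose product is a secreted matricellular protein, was high in both groups (3.74, 3.19 and 3.64 in crypt organoids, against 2.88 and 2.04 in MEFs), and its change of 1.06 passed the test narrowly (adjusted p = 0.032), and under quantile scaling it did not (0.88, adjusted p = 0.0662). The 2 that were lower were the hyaluronan receptor gene Cd44 (-2.63) and the Wnt inhibitor gene Nkd1 (-1.65); the call for Nkd1 was not kept under every scaling.

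Paneth cells guard the crypt base with antimicrobial peptides, and the probes of 2 of these are shown because alpha-defensins form a family of close copies. Both lie in the defensin cluster on chromosome 8 (mm9 coordinates from the array files); the Defa20 probe covers chr8:22619859-22619918 on the plus strand, and the Defa23 probe spans an intron, covering chr8:22194930-22195548 on the plus strand.
Defa20 probe: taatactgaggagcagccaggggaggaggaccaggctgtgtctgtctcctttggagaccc
Defa23 probe: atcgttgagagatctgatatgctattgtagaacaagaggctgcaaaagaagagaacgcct
Compared without gaps, the probes of Defa21 and Defa23 had 34 of 47 overlapping bases alike and those of Defa20 and Defa22 had 26 of 30, the closest pairs among the defensin probes of the list; how far transcripts of other defensins bind them was not tested. Of the 26 Paneth cell genes, 10 had no probe that could be named, and of the 16 tested, 14 were higher and 1 lower in crypt organoids (median 8.46). Among the 9 not dim in all of 1 group, 7 were higher and 1 lower. Defa20 had levels of 8.50, 8.35 and 8.33 in crypt organoids, against -5.80 and -5.62 in MEFs. Defa21 was at least 5706-fold higher, and Itln1, an intelectin made by Paneth and goblet cells, at least 9926-fold higher. The antimicrobial ribonuclease gene Ang4 changed by 6.53, and Mmp7, the protease that activates mouse alpha-defensins, by 8.91. Lyz1, the lysozyme of Paneth cells, had levels of 6.87, 6.64 and 6.87 in crypt organoids, against 3.26 and 3.67 in MEFs, a change of 3.33. The related macrophage lysozyme gene Lyz2 was bright in both groups by 1 probe (crypt mean 7.24, MEF mean 6.34) and its other probe gave a change in the opposite direction (0.89 against -1.02, the second called). The defensin gene Defa3 likewise had a MEF mean of 3.6 and a change of 2.99. Nupr1, a stress-response regulator, was lower in crypt organoids (-1.98).

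Goblet, enteroendocrine and tuft cell genes followed. Of 23 tested goblet cell genes, 20 were higher and 3 lower (median 5.51). Of the 11 above background on at least 1 array of each group, 8 were higher and 3 lower. Tff3, the trefoil peptide of goblet cells, was at least 4733-fold higher in crypt organoids (6.42, 5.67 and 5.76, against -7.82 and -8.33 in MEFs). The protein disulphide isomerase gene Agr2 was at least 2169-fold higher, Muc13 at least 1729-fold, the gel-forming mucin gene Muc2 at least 126-fold and the goblet cell factor Spdef at least 79.1-fold. The 3 lower genes, Sytl2 (-1.62), Creb3l1 (-1.35) and Clca3a1 (-1.13), were not called under every scaling. Of 31 enteroendocrine genes, 27 were higher and 3 lower (median 3.23). With genes dim in all of 1 group left out, 18 of 22 were higher and 3 lower. The granins Chgb and Chga changed by 11.31 and 9.96, and the incretin genes Gip and Gcg were at least 645-fold and at least 333-fold higher. Chga had levels of 4.70, 2.94 and 3.14 in crypt samples 1 to 3, against -7.02 and -5.71 in MEFs. The endocrine factor Neurod1 was at least 5.06-fold higher at a low level (-3.56, -4.20 and -3.99, against -7.70 and -8.84), and its call was lost with another background correction (normexp). The peptide hormone gene Cck, also measurable in MEFs, changed by 2.49 ± 0.58. Cpe, the prohormone-processing carboxypeptidase, was lower in crypt organoids (-4.90), with levels of 1.86, -0.34 and -0.23 against 5.26 and 5.40 in MEFs. The lower call for Marcksl1 (-1.41) was not kept under every scaling.

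Tuft cell genes were the secretory list with the smallest share called: 10 of 20 tested were higher and 2 were lower (median 1.02), against 24.2% and 26.2% of all genes. In 6 of the 20, no MEF array was above background, so that these had to be higher. Of the 14 tuft cell genes above background on at least 1 array of each group, 4 were higher and 2 lower. That share of 4 in 14 was close to the 24.2% of all genes called higher. Trpm5, the taste-type cation channel, changed by 5.08 ± 1.17 with only 1 MEF array above background, and Rgs13 and the factor Spib were at least 22.4-fold and at least 21.4-fold higher. Dclk1, widely used as a tuft cell marker, was higher in MEFs, at -1.45, -2.52 and -2.58 in crypt organoids, against 0.41 and -1.14 in MEFs. Its change of -1.82 (adjusted p = 0.039) was not kept under median scaling (-1.27, adjusted p = 0.103) or without MEF sample 1 (-1.05, adjusted p = 0.180). These values are from the Dclk1 probe of highest mean level, and the size of the difference depended on the probe. By its other tested probes, Dclk1 changed by -0.60 and -1.42, neither called, and by -3.47, -5.46 and -5.85. The last of these were all called lower, each with only 1 crypt array above background. Ptgs1, cyclooxygenase 1, was also lower in crypt organoids (-5.54 ± 0.75). Of 14 Notch pathway and secretory fate genes, 8 were higher and 3 lower (median 1.91). With genes dim in all of 1 group left out, 5 of 11 were higher and 3 lower. Gfi1, which acts downstream of Atoh1 in secretory cells, was at least 38.2-fold higher, and the ligand genes Dll1 and Jag2 changed by 5.84 and 6.18. The lower genes were the target Hey1 (-5.52) and the receptors Notch3 (-4.14) and Notch2 (-1.96), all called under every scaling.

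The absorptive and detoxifying genes of enterocytes were higher in crypt organoids with few exceptions. Of 19 brush border enzymes tested, 16 were higher in crypt organoids and none was lower (median 5.47). Of 31 nutrient and ion transporters, 27 were higher and none was lower (median 7.19). Of the 15 above background on at least 1 array of each group, 11 were higher. Of 25 genes of lipid absorption and apolipoproteins, 22 were higher and 1 lower (median 5.01), of 24 microvillus genes 20 were higher and 1 lower (median 6.29), and of 37 genes of xenobiotic and glutathione metabolism 36 were higher and none was lower (median 8.78). With genes dim in all of 1 group left out, 10 of 13 brush border enzymes and 14 of 17 lipid genes were higher. On the same terms, 14 of 18 microvillus genes and 23 of 24 xenobiotic genes were higher. Every higher call in these 5 lists was kept under the other 3 scalings. Vil1, the actin bundler villin of microvilli, was at least 8346-fold higher, with levels of 6.80, 6.74 and 6.77 in crypt organoids, against -8.03 and -8.56 in MEFs. Alpi, the intestinal alkaline phosphatase, was at least 1300.0-fold higher and the trehalase gene Treh at least 858-fold. The glucose transporter gene Slc5a1 was at least 1420-fold higher, Npc1l1, the sterol uptake transporter of enterocytes, at least 833-fold, and the fructose transporter gene Slc2a5 and the sterol transporter gene Abcg5 changed by 10.49 and 11.11. Apoa4 and Apoa1, apolipoproteins of chylomicrons, were at least 2362-fold and at least 1627-fold higher, and Fabp2 changed by 12.70 ± 0.20. The aminopeptidase gene Anpep was expressed in both groups (5.08, 4.69 and 4.98, against 1.62 and 1.01) and changed by 3.60. Lct, lactase, differed among crypt samples, with -0.23 in sample 1 and 2.29 and 2.21 in samples 2 and 3, against -4.90 and -5.56 in MEFs. The lower genes were the retinol dehydrogenase gene Dhrs9 (-2.31) and Plec, which encodes the linker plectin (-1.51, not kept under every scaling).

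**Figure D2:**
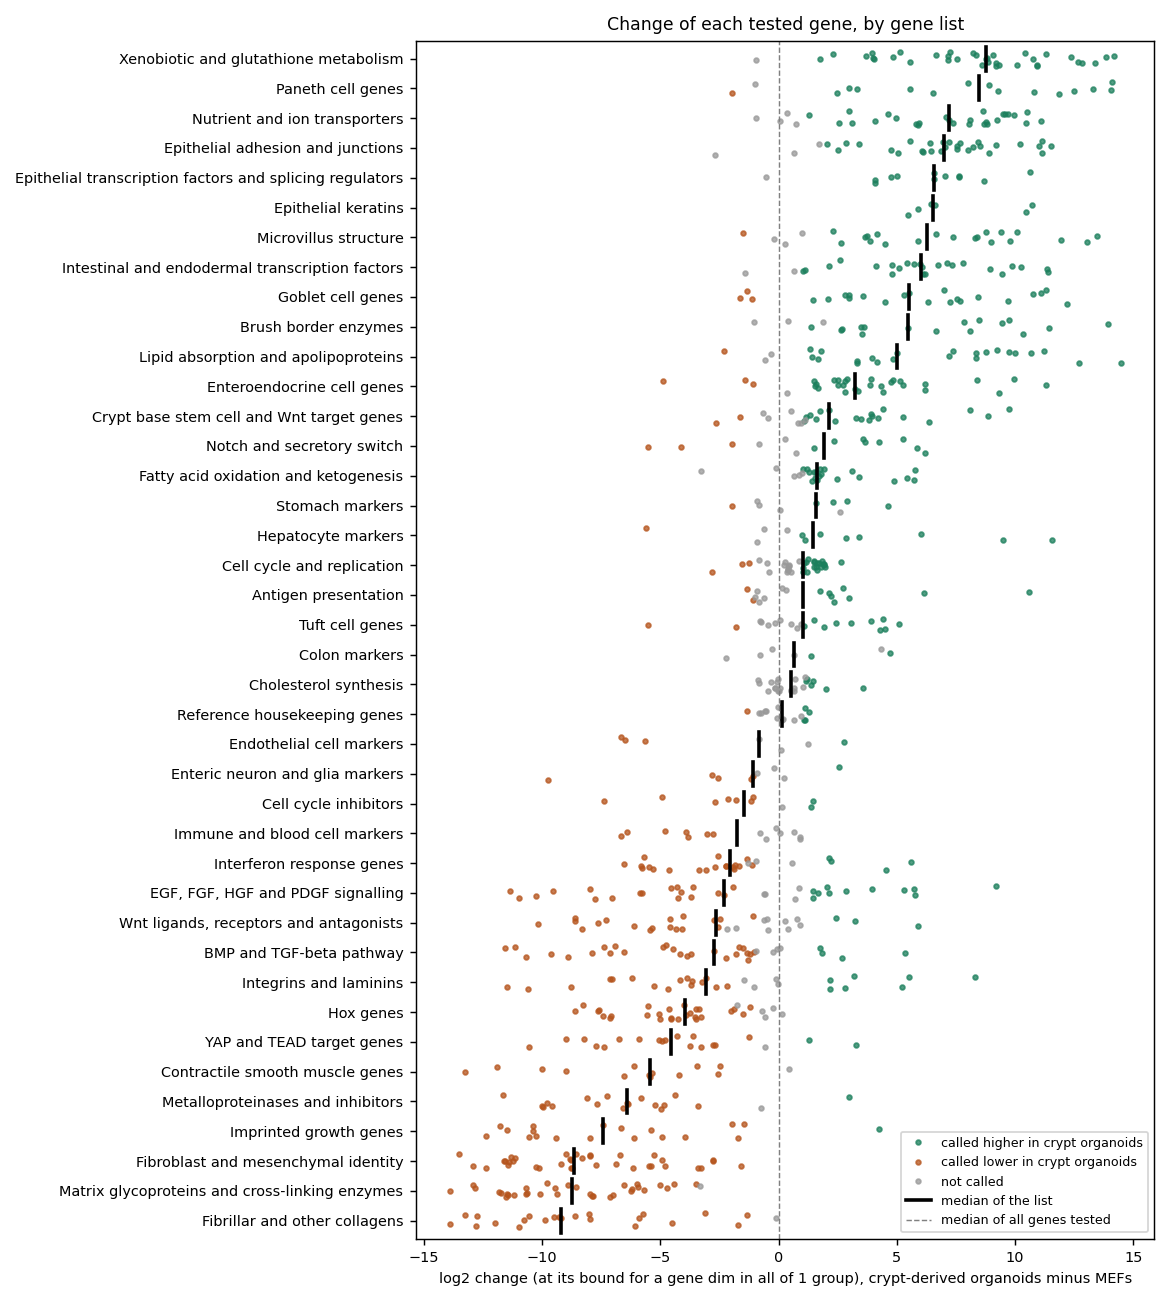
Log2 change (crypt-derived organoids minus MEFs, at its bound for a gene not above background on any array of 1 group) of each tested gene in 40 gene lists, with the list median as a black bar and the median of all 15036 genes as a dashed line. Medians run between 8.78 for xenobiotic metabolism and -9.19 for collagens, while housekeeping and cholesterol synthesis genes lie around 0.

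The start-site windows of these absorptive genes were searched for short motifs of the factors that were high in crypt organoids (RefSeq promoters, GRCm38.p6, 250 bases before to 50 after the start, both strands). The motifs were TTTATTG for CDX factors, CAAAGTCCA for HNF4 and AGATAAG for GATA factors, and no motif is contained in another. For each of the first 2, the printed window is that of the absorptive gene with the largest change among those whose window held a match. The match is in capitals. The Sis window lies at chr3:72967814-72968113 on the minus strand, and its CDX match begins 52 bases before the start site.
Sis promoter: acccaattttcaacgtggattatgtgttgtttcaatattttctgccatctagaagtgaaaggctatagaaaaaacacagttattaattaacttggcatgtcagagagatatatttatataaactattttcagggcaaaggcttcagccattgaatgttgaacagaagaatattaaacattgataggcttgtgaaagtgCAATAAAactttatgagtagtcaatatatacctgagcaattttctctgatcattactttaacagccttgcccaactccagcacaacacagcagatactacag
The Alpi window lies at chr1:87101557-87101856 on the minus strand, and its HNF4 match begins 19 bases before the start site.
Alpi promoter: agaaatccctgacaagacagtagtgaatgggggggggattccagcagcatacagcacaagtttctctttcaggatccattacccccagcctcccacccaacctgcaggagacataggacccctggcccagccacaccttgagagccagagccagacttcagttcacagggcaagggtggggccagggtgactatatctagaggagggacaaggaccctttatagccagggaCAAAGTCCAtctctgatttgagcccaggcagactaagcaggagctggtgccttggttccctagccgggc
The CDX motif was in 2.98% of the windows of genes higher in crypt organoids and in 2.14% of those of lower genes, against 2.61% of windows of all tested genes and 4.60% of all 32851 windows. The HNF4 motif was in 0.922% of the windows of higher genes and 0.280% of those of lower genes (0.463% of tested genes, 0.475% of all windows) and the GATA motif in 2.69% and 1.99% (2.11% of tested genes, 3.04% of all). Of the 71 absorptive genes that were higher and had a window, 13 (18.3%) held any of the 3 motifs, against 735 (6.17%) of the 11917 tested genes with a window. The windows of Abcg5 and Abcg8 overlap and hold the same GATA match, which is counted for both genes.

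Mesenchymal genes were lower in crypt organoids, and no gene of the fibroblast, collagen or matrix lists was higher in crypt organoids. All 36 tested genes of fibroblast and mesenchymal identity were lower (median -8.65), as were 22 of 23 collagens (median -9.19) and 33 of 34 genes of matrix glycoproteins and cross-linking (median -8.73). Of those above background on at least 1 crypt array, 19 of 19, 10 of 11 and 18 of 19 in the 3 lists were lower. At the level of the summed signal (relative to the 75th percentile), the fibroblast list gave 5.55 to 6.07 in crypt organoids, against 1180 to 1410 on MEF arrays. In crypt organoids 18 of the 37 genes on the array, the untested one included, were not above background on any array. Pdgfra, the growth factor receptor of stromal fibroblasts, was at -7.36, -8.63 and -8.85 in crypt organoids, against 2.12 and 1.18 in MEFs, at least 315-fold lower. The transcription factors Zeb1 and Twist1, repressors of the epithelial programme, were at least 434-fold and at least 445-fold lower, the proteoglycan gene Dcn at least 5333-fold and the fibronectin gene Fn1 at least 7394-fold. Vim, vimentin, was above background in crypt organoids at -0.08, -0.22 and -0.10, against 7.73 and 7.96 in MEFs (-7.98 ± 0.16). Snai2 was also above background there (-2.73, -0.56 and -0.37, against 3.80 and 4.27; -5.25 ± 0.77), as was the calcium-binding protein gene S100a4 (-1.60, -2.75 and -2.50, against 8.05 and 7.62).

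Type I collagen's alpha-2 chain, Col1a2, changed by -12.81 and was above background in all crypt samples (-4.60, -3.89 and -3.95, against 8.73 and 8.59), and Col5a1 was at least 6880.0-fold lower. Col4a6, a chain of basement membrane collagen, was the 1 collagen that did not pass the test. The matrix gene Sparc changed by -12.92 (log2), and Mfap4 was at least 3647-fold lower. Of 19 metalloproteinases and inhibitors, 17 were lower and 1 higher (median -6.40). In 11 of the 19, no crypt array was above background, so that these had to be lower. Among the other 8, 6 were lower and 1 higher. The gelatinase gene Mmp2 was at least 3237-fold lower, Mmp3 at least 887-fold, Adamts1 at least 1027-fold, and the inhibitor gene Timp1 changed by -9.94; the higher gene was the membrane-bound Mmp15 (2.98). Of 27 integrins and laminins, 7 were higher and 16 lower (median -3.06), all kept under the other scalings. With genes dim in all of 1 group left out, 4 of 19 were higher and 11 lower. The higher ones included Lamb3, a chain of an epithelial laminin (at least 315-fold), the epithelial integrin Itgb6 (at least 46.0-fold) and the hemidesmosome integrin pair Itgb4 (5.22) and Itga6 (3.17). The lower ones included the collagen receptor subunit Itga11 (at least 2883-fold), Itga8 (at least 437-fold) and the laminin gene Lama4 (-10.60).

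Of 14 contractile genes of smooth muscle, 13 were lower and none was higher (median -5.46). With genes dim in all of 1 group left out, 9 of 10 were lower. Calponin, Cnn1, was at least 3896-fold lower (-9.04, -8.61 and -8.53 in crypt organoids, against 5.18 and 5.38 in MEFs), Cald1 at least 1024-fold and Lmod1 changed by -8.98. For Acta2, smooth muscle actin, the size of the difference depended on the probe. The probe with the highest mean level over the samples, which is the one tested here, is a 60-base sequence spread over 3255 bases of chromosome 19 (chr19:34322995-34326249, mm9, minus strand), so it crosses an exon junction.
Acta2 probe: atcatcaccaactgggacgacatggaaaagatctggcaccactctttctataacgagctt
By this probe, Acta2 had levels of 2.74, 2.83 and 2.93 in crypt organoids, against 5.95 and 6.67 in MEFs, a change of -3.47 ± 0.25. Of the other tested Acta2 probes, 1 was above background on all arrays and changed by -13.82, and the 2 on which no crypt array was above background were at least 2926-fold and at least 51.4-fold lower. Tagln, transgelin, showed the same disagreement, with -5.49 by the brighter probe and at least 4194-fold lower by the other. Which transcripts the Acta2 and Tagln probes that are bright in crypt organoids bind was not tested. Among 6414 genes with at least 2 tested probes, 48 (0.748%) had probes called in opposite directions.

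**Figure D3:**
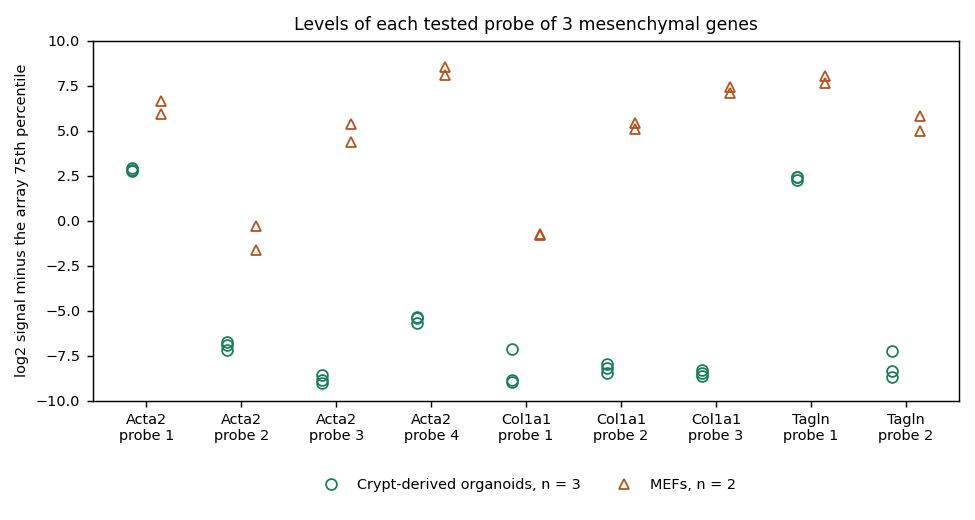
Level of each tested probe of Acta2, Col1a1 and Tagln (log2 signal minus the 75th percentile of the array) in 3 crypt-derived organoid samples (circles) and 2 MEF samples (triangles). Crypt organoids have levels above 2 on 1 Acta2 and 1 Tagln probe only, while every probe is higher in MEFs.

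Hox genes, which record position along the body axis, were nearly all lower in crypt organoids: 27 of 32 tested were lower, none was higher, and the median change was -3.97. In 14 of the 32, no crypt array was above background, so that these had to be lower; of the other 18, 13 were lower. Hoxa11 was at least 395-fold lower (-9.02, -8.57 and -8.85 in crypt organoids, against 2.35 and 1.60 in MEFs), Hoxd13 at least 305-fold, Hoxc6 at least 198-fold and Hoxc9 at least 194-fold. Hoxd4, Hoxd8, Hoxd10, Hoxd11, Hoxb5, Hoxb8, Hoxc8, Hoxc10 and Hoxd9 were at least 10.4-fold to at least 47.9-fold lower, and Hoxa13 at least 3.66-fold. Hoxb7 (-7.42), Hoxb9 (-7.12), Hoxa10 (-7.08), Hoxb2 (-5.07), Hoxa7 (-4.54), Hoxa5 (-4.53), Hoxb4 (-3.54), Hoxb3 (-3.51), Hoxc5 (-3.30), Hoxa9 (-2.01), Hoxa2 (-1.50) and Hoxc4 (-1.19) were among those lower without such a bound. Hoxa3, Hoxa4, Hoxa6, Hoxb6 and Hoxd12 did not pass the test. Hoxb6 had levels of -1.59, -1.91 and -1.95 in crypt organoids, against -1.42 and -1.73 in MEFs, and Hoxa3 -1.98, -2.12 and -2.09 against -2.22 and -2.21.

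Of 30 Wnt ligands, receptors and antagonists tested, 18 were lower in crypt organoids and 3 were higher (median -2.66). In 9 of the 18, no crypt array was above background, so that these had to be lower. Among the 20 not dim in all of 1 group, 9 were lower and 2 higher. Wnt3, the ligand that Paneth cells supply to stem cells, was at least 59.3-fold higher, with levels of -0.10, -0.52 and -0.47 in crypt organoids, against -7.86 and -8.12 in MEFs. Fzd5, a Wnt receptor of the crypt, changed by 3.21 and the ligand gene Wnt9b by 2.43. The ligands and agonists of mesenchyme were lower: Wnt5a at least 20.1-fold, and the R-spondins Rspo3 and Rspo2 at least 17.02-fold and at least 315-fold. The antagonists Dkk2 and Sfrp1 were at least 390-fold and at least 386-fold lower, and Dkk3 changed by -10.16. Of 33 BMP and TGF-beta pathway genes, 25 were lower and 4 higher (median -2.75), and 20 of the 25 were kept under the other scalings. With genes dim in all of 1 group left out, 15 of 23 were lower and 4 higher. Grem1, the secreted BMP antagonist, was at least 795-fold lower (-8.77, -8.30 and -8.58 in crypt organoids, against 2.97 and 3.00 in MEFs), Inhba, an activin subunit, at least 2299-fold, and Tgfb3 and Fstl1 changed by -11.55 and -10.70. The 4 higher genes were all ligands of the family: Bmp7 (5.35), Bmp8b (2.68), Bmp2 (1.85) and Gdf15 (1.77). Of 33 genes of EGF, FGF, HGF and PDGF signalling, 11 were higher and 18 lower (median -2.33), all kept under the other scalings. In 9 of the 18, no crypt array was above background, so that these had to be lower. Among the 24 not dim in all of 1 group, 11 were higher and 9 lower. The receptor genes Erbb3 (9.21), Kit (5.79) and Fgfr4 (5.73) and the EGF-family ligand gene Areg (5.29) were higher, while Igf2 (-10.25) and the binding proteins Igfbp5 (at least 2603-fold), Igfbp3 (at least 736-fold) and Igfbp7 (-10.97) were lower in crypt organoids.

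Markers of other cell types were read for what each group might also hold. Of 20 immune and blood cell markers, 14 were tested, 7 were lower in crypt organoids and none was higher (median -1.77). Of the 11 above background on at least 1 array of each group, 4 were lower, against 26.2% of all genes. The macrophage markers Adgre1 (at least 101-fold), Tyrobp (-6.41), Cd68 (-4.79) and Laptm5 (at least 15.2-fold) were higher in MEFs and above background on all 3 MEF arrays. Adgre1 had levels of -9.04, -8.61 and -8.87 in crypt organoids, against -0.63 and 0.65 in MEFs. The summed signal of the whole list was 149 to 159 in crypt organoids, against 69.7 to 109 on MEF arrays, with Lyz2 alone at a level of 7.24 in crypt organoids. Of 13 endothelial markers, 7 were tested, with 1 higher and 3 lower. Kdr, Erg and Emcn were at least 102-fold, at least 90.6-fold and at least 50.1-fold lower in crypt organoids. In these 3 no crypt array was above background, so that they had to be lower. Of the other 4 tested, 1 was higher and none was lower, a share of 1 in 4 close to the 24.2% of all genes called higher. The defining genes Pecam1, Cdh5, Tie1 and Cldn5 were not above background on any array of either group. The summed endothelial signal was 1.98 to 2.65 in crypt organoids, against 4.04 to 5.59 on MEF arrays. Of 9 tested markers of enteric neurons and glia, 1 was higher and 5 were lower (summed signal 0.877 to 2.27 in crypt organoids, against 13.4 to 29.8 on MEF arrays). Of the 7 above background on at least 1 array of each group, 4 were lower and none was higher, against 26.2% and 24.2% of all genes. Uchl1 (-9.76) led, and Ret was not above background on any array. The part of such cells in the MEF values was not tested.

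Of 12 tested hepatocyte markers, 8 were higher in crypt organoids and 1 lower (median 1.43). In 6 of the 12 no MEF array was above background, and in 1 no crypt array was, so that these had to differ. Of the other 5, 2 were higher and none was lower, against 24.2% and 26.2% of all genes. Cps1 and Otc, urea-cycle enzymes that enterocytes make as well as liver cells, were at least 3001-fold and at least 718-fold higher, and the plasma protein gene Ambp changed by 6.03. The fibrinogen genes Fgb and Fgg, Ahsg and Cyp7a1 were not above background on any array, and Hp, haptoglobin, was at least 49.1-fold lower. Of 9 tested stomach markers, 4 were higher and 1 lower (median 1.57), against 24.2% and 26.2% of all genes. Of the 7 above background on at least 1 array of each group, 3 were higher and none was lower. The higher stomach genes included Gkn3 (4.62, with 2.00, -0.36 and 1.00 in crypt organoids, against -3.62 and -3.86 in MEFs), the proton pump gene Atp4a (2.91) and Tff1 (2.28), while Sox2 was at least 3.90-fold lower. Of 7 tested colon markers, 2 were higher and none was lower (median 0.64), a share of 2 in 7 close to the 24.2% of all genes called higher. These were Mettl7b, at least 26.3-fold with no MEF array above background, and Prdx6b, by 1.39.

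Proliferation genes were above background in both groups, and the changes were small beside those of the lineage genes. Of 36 genes of the cell cycle and replication, 20 were higher in crypt organoids and 3 lower (median 1.05), and 15 of the 20 were kept under the other scalings. Mki67 had levels of 4.59, 4.64 and 4.75 in crypt organoids, against 2.84 and 2.70 in MEFs (1.89 ± 0.15, adjusted p = 0.00026). The replication licensing genes Cdt1 (2.62) and Mcm6 (1.94) and the spindle motor gene Kif11 (1.95) were higher, and the cyclin genes Ccnd3 (-2.80), Ccnd1 (-1.54) and Ccne1 (-1.25) were lower, those for Ccnd1 and Ccne1 not under every scaling. Ccnd2 did not pass the test (-0.82 ± 0.32, adjusted p = 0.072). Of 10 cell cycle inhibitors, 7 were lower and 2 higher (median -1.48). Cdkn2a, which encodes p16 and p19ARF, was at -8.92, -8.52 and -8.75 in crypt organoids, against 1.18 and 0.33 in MEFs, at least 169-fold lower. Cdkn1c (-4.95), Mdm2 (-2.68) and, not under every scaling, Cdkn1a (-2.13) were lower, and Cdkn1b (1.37) and Rb1 (1.46) were higher.

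Of 20 tested YAP and TEAD target genes, 17 were lower in crypt organoids and 2 higher (median -4.56). With genes dim in all of 1 group left out, 13 of 16 were lower and 2 higher. Ccn2, connective tissue growth factor, had levels of -4.24, -5.05 and -3.78 in crypt organoids, against 5.67 and 6.69 in MEFs. Ankrd1 was at least 304-fold and Axl at least 512-fold lower, and Wwc1 (3.27) and Birc3 (1.29) were higher. Of 19 imprinted growth genes, 18 were lower (median -7.41), among them Mest (at least 3475-fold), Sgce (at least 1506-fold) and H19 (-11.50), and Phlda2 was higher (4.23). Among the 12 not dim in all of 1 group, 11 were lower. Of 26 interferon response genes, 19 were lower and 4 higher (median -2.06), and 14 of the 19 were kept under the other scalings. Among the 22 not dim in all of 1 group, 15 were lower and 4 higher. Gbp2 (at least 94.1-fold), Iigp1 (at least 52.0-fold), Usp18 (-5.84) and Ifit3 (-5.76) were lower, and Irf8 (5.59), Oasl1 (4.54), Oas3 (2.19) and Oas1a (2.13) were higher. Of 16 antigen presentation genes, 8 were higher and 2 lower (median 1.02). Among the 14 not dim in all of 1 group, 6 were higher and 2 lower. The class I genes H2-Q1 and H2-T3 were at least 1551-fold and at least 71.7-fold higher, H2-K1 changed by 2.97, and the lower calls for B2m (-1.34) and Psmb8 (-1.09) were not kept under every scaling.

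Of 24 genes of fatty acid oxidation and ketogenesis, 19 were higher and none lower (median 1.60). The peroxisomal enzyme gene Ehhadh changed by 5.74 and Bdh1 by 4.86. Of 24 cholesterol synthesis genes, 6 were higher and none lower (median 0.51), a share of 6 in 24 close to that of all genes called higher; the count was 10 under median scaling and 13 under spike-in scaling. Stard4, a sterol carrier, changed by 2.00. Of 15 housekeeping genes, 4 were higher and 1 lower, against 24.2% and 26.2% of all genes, with changes of -1.34 to 1.27 (median 0.14). This balance turned to 1 higher and 3 lower under quantile scaling.

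The crypt organoids were then set against the other organoids, for the marker genes alone. All shared a scanner model, but the FI arrays lay on the slide of crypt sample 1 and the iISC arrays on a slide with no crypt array, so that slide and group cannot be told apart for iISC organoids. Against FI-derived organoids, 9.03% of 14189 genes were called, and of 49 marker genes tested 4 were higher and 4 lower in crypt organoids. Against iISC-derived organoids, 3.42% of 13606 genes were called, and of 49 marker genes 1 was higher and 2 were lower. Both comparisons use the same crypt arrays. Alpi was higher in crypt organoids than in both, by 2.84 ± 0.47 against FI and 2.21 ± 0.47 against iISC organoids, with a lowest level of 3.83 in crypt organoids, against a highest level of 1.84 in FI and 1.88 in iISC organoids. Fabp2 (2.32 ± 0.52), Sis (2.31 ± 0.69) and Hnf4g (1.72 ± 0.21) were higher in crypt than in FI organoids. Cck was lower in crypt organoids than in both (-1.91 against FI and -1.67 against iISC organoids), and Mmp7 (-1.44) and Neurod1 (-1.06) were lower than in FI organoids. Cdkn2a was not above background on any crypt array and was above it on all arrays of the other organoids, so that it was at least 3.33-fold lower than in FI and at least 2.66-fold lower than in iISC organoids (adjusted p = 0.0033 and 0.0117). Within the slide that crypt sample 1 shared with the FI arrays, sample 1 lay above all 3 FI arrays for Alpi (by 2.59 from their mean), Fabp2 (2.06), Sis (1.87) and Hnf4g (1.34), and below all 3 for Mmp7 (-1.12), Cck (-0.87) and Neurod1 (-0.71), as for Cdkn2a. All these differences were smaller than those against MEFs for the same genes.

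**Figure D4:**
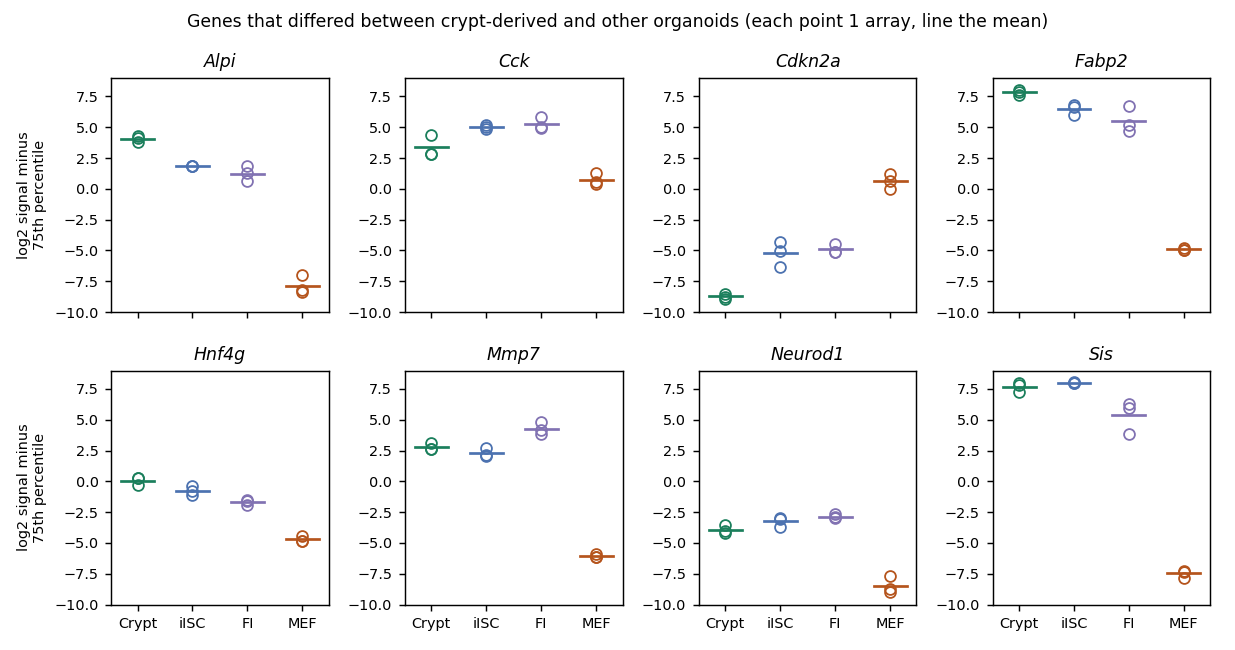
Level of 8 marker genes (log2 signal minus the 75th percentile of the array) on each array of crypt-derived, iISC-derived and FI-derived organoids and MEFs, with the group mean as a line. Cdkn2a is lowest in crypt organoids, highest in MEFs and between the 2 in the other organoids, and Alpi is highest in crypt organoids.

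The crypt samples were not alike among themselves. Over 13360 genes above background in all 3, the median absolute difference was 0.30 between samples 1 and 2, 0.29 between samples 1 and 3, and 0.12 between samples 2 and 3, which shared a slide. A range of more than 2 was seen for 287 genes (2.15%), and in 263 of these sample 1 was the one apart. The gene with the widest range, Aqp8, a water channel, had levels of -4.47, 0.67 and 1.44, against -5.53 and -4.68 in MEFs, and did not pass the test. Muc2 had 1.80, 0.33 and 0.04 in samples 1 to 3, and Apoa4 had 3.24, 5.81 and 5.80, so that sample 1 was high for Muc2, as it was for Chga, and low for Apoa4, as it was for Lct. Whether this follows the slide or the culture cannot be told apart, since slide and sample coincide. The number of genes called without crypt sample 1 was 7800.

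**Figure D5:**
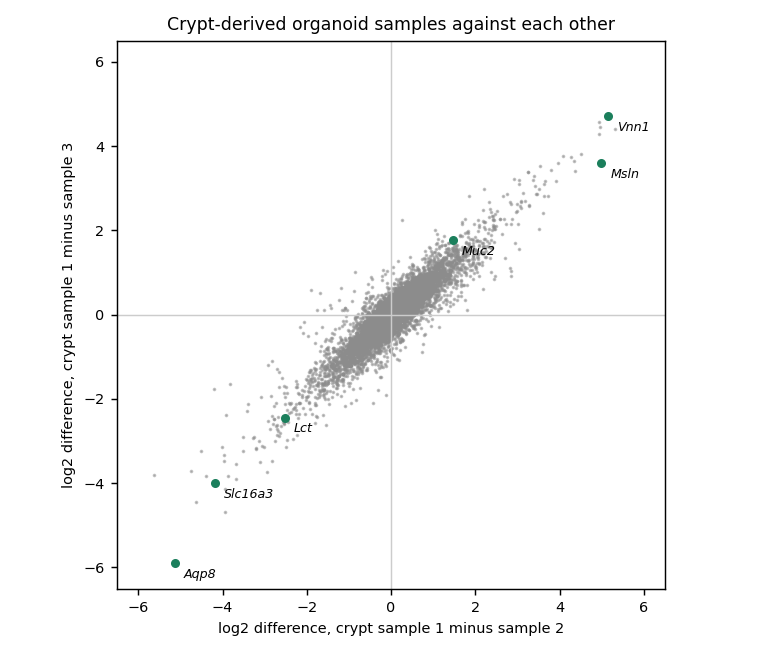
Log2 difference of crypt sample 1 from sample 2 (horizontal) and from sample 3 (vertical) for 13360 genes above background in all crypt-derived organoid samples. Genes far from 0 lie along the diagonal, where samples 2 and 3 share a level and sample 1 differs, Aqp8 and Slc16a3 low and Vnn1 and Msln high in sample 1.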

How the data were processed

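Gene expression was measured on 18 Agilent whole-genome mouse arrays with Cy3 label, of which the 3 crypt-derived organoid and 3 MEF arrays are used here, with 6 further organoid arrays for 1 comparison. The deposited scanner files hold processed signal intensity per spot (background-subtracted by the scanner software per the file headers, Agilent Feature Extraction 10.7.1.1 for organoids and 9.5.1.1 for MEFs; the submitters' processing notes name 9.5.1.1). The authors' deposited value table holds intensity of the same arrays on a linear scale, with a median of 59.32 in every column; it served as an alternative after log2, and how it was scaled is not given in the sources used here. From the intensities, log2 was taken and the 75th percentile of each array's gene probes subtracted; outlier spots were left out, spots of a probe averaged, and each gene was taken from its probe of highest mean level. Probes were named through RefSeq by accession (24844), symbol (6045) or synonym (1810), and 8475 stayed unnamed. A gene was tested if well above background on every array of either group. limma 3.58.1 (R 4.3.3; lmFit, eBayes, Benjamini-Hochberg) compared 3 crypt with 2 MEF samples, and was tested on simulated data. An exact permutation test of 3 against 2 samples could not go below p = 0.1. The number of arrays limits the precision. Replicate numbers do not pair the samples.

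The genes described are 62 markers, the 10 largest rises and falls (unnamed transcripts left out), up to 4 called members per list and 4 against its direction, and every called Hox gene; a few genes that this rule names are not reported here. The members, markers and lists were chosen with earlier results of these data known.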

Additional observations from a re-analysis of the deposited data

Results flagged for a closer look

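The difference between crypt organoids and MEFs was not of the same size in other organoids for 8 of the marker genes, by limma's test of crypt against the other organoids (adjusted p under 0.05 over all genes tested and a change of 1 or more on the log2 scale). Against FI-derived organoids the log2 differences were 2.84 for Alpi, 2.32 for Fabp2, 2.31 for Sis and 1.72 for Hnf4g, all higher in the 3 crypt samples than in each of the 3 FI samples, and -1.06 for Neurod1, -1.44 for Mmp7 and -1.91 for Cck, all lower; Cdkn2a, not above background on any crypt array, was at least 3.33-fold lower. Against iISC-derived organoids they were 2.21 for Alpi and -1.67 for Cck, and Cdkn2a was at least 2.66-fold lower. The groups did not overlap for any of these. The crypt samples are shared between both comparisons.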

How the results depend on the processing

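Against 7575 genes called, quantile scaling gave 7496, normexp background correction 6519, the authors' own values 7494, all 17 samples 7561 and slide as a random block 7630. No probe called under both the main and another setting changed direction. Where a setting took a gene from another probe, its direction was not compared. Median and spike-in scaling gave 5539 and 6435 higher genes, against 3636. Testing only genes above background in both groups gave 5031 calls (2368 lower) among fewer genes, testing each probe gave 13001 (6205 higher and 6796 lower) among more features, and a log2 threshold of 2 gave 4726 (1966 higher). Leaving out crypt or MEF samples gave 7289 to 7800 calls (3436 to 3747 higher and 3788 to 4053 lower); where 1 MEF sample remained, it is assumed to vary like the crypt samples. With 3 separate MEF arrays, the replicate block gave 7670 calls and no replicate block 7708; same-numbered samples did not deviate together. Without crypt sample 1 or without MEF sample 1, both added after seeing the data, 727 and 687 list genes were called, against 711. The balance of housekeeping genes turned to lower under quantile scaling and in the authors' values (4 called in each) and without MEF sample 1 (3 called), but not without crypt sample 1 (6 called). Smoc2, Dclk1, Lgr5, Cck and Neurod1 lost their calls under at least 1 setting, Mki67 only under the stricter threshold, and Ccnd2 gained a call under quantile scaling (-1.21), in the authors' values (-1.26) and without crypt sample 1 (-1.12); Cck lost its call without MEF samples 2 and 3 (2.08, adjusted p = 0.0815). The causes were not tested. Probes near background limit every fold given as a bound, and the scanner and software differ with the group.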

Other observations

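The following genes stood among those that differed most between crypt sample 1 and samples 2 and 3; they were chosen after their values were seen, and the difference between samples was not tested. Slc16a3, a lactate exporter, had levels of 1.45, 5.64 and 5.46 in samples 1 to 3, against 2.64 and 1.81 in MEFs. Ero1a, an oxidase of protein folding, had 0.91, 4.88 and 4.25, against 1.48 and 1.46 in MEFs. Ankrd37 had 0.28, 4.19 and 2.65, against -0.75 and -1.49 in MEFs, and P4ha2, a collagen prolyl hydroxylase, had -1.46, 2.40 and 2.37, against 4.28 and 4.57 in MEFs. For all 4 the lowest crypt value was that of sample 1. In the other direction, Vnn1, a pantetheinase, had 1.88, -3.26 and -2.83, against -0.29 and -0.17 in MEFs, and Msln, mesothelin, had 1.39, -3.60 and -2.21, against 1.80 and 2.43 in MEFs. Of these genes, only Ankrd37 was called different from MEFs.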
